A study of Mus musculus with 16 samples.

Results

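Otx2, Pou3f1, Fgf5, Sox3, Sox4 and Foxp1 were followed as genes of the formative and primed states of pluripotency. These 6 genes were taken by symbol from the 55291 genes of the deposited expression table, and all 6 passed the filter on low values that left 17757 genes for testing. Expression came from total RNA-seq of 16 libraries of mouse embryonic stem cells (E14Tg2a, strain 129/Ola) whose own CTCF is fused to a degron, so that auxin leads to its breakdown. In each of the 4 lines a doxycycline-inducible transgene supplies CTCF, the zinc finger protein that binds DNA and anchors chromatin loops, as wild type (WT) in 1 line and with a single substitution, R342C, K365T or Q418R, in each of the others. All cultures, WT included, received 500 µM indole-3-acetic acid and 1 µg/ml doxycycline, given for 2 days in the protocol. Every comparison between lines is thus between transgenes, and no comparison is with untreated cells. One medium held serum, leukemia inhibitory factor (LIF), 3 µM CHIR99021 and the MEK inhibitor PD0325901 at 1 µM, and is called LIF. The other lacked these 3 additions for 3 days and is called no LIF. Line and medium gave 8 groups of 2 libraries. Each genotype is 1 line, so that genotype and line cannot be told apart, and the labels do not say whether the 2 libraries came from separate cultures, so that p-values measure only the spread between these libraries.

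In the mouse embryo, cells of the epiblast pass from a naive state through a formative state to a primed state before they become germ layers, and embryonic stem cells repeat this course when LIF and the inhibitors of MEK and GSK3 are withdrawn. Otx2 is a homeodomain factor that redirects Oct4 to new enhancers at this step, and Pou3f1 (also called Oct6) is a POU factor that comes on with it. Fgf5 encodes a secreted fibroblast growth factor and is a classical marker of the post-implantation epiblast. Sox3 is a SoxB1 factor close to Sox2 and is carried on the X chromosome, Sox4 is a SoxC factor of progenitor cells, and Foxp1 is a forkhead factor with a splice form of its own in pluripotent cells. Gene-level values cannot tell splice forms apart.

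Depth was 19721363 to 31935381 reads per library, recovered from the deposited normalised counts, each of which was a whole multiple of the value of 1 read. In WT without LIF, replicate 2 stood apart: its 10 most abundant genes took 10.8% of the normalised counts, against 5.98% to 8.1% in the other 15 libraries. Calls against WT without LIF are given with and without it. Markers of pluripotent cells were present in both media. The summed level of Pou5f1, Sox2, Sall4, Tdgf1, Lin28a and Utf1 was 46569 to 53272 normalised counts in the LIF libraries and 42112 to 49717 in the no LIF libraries, but its members moved in opposite directions. In WT Lin28a and Utf1 rose while Tdgf1, Sox2 and Pou5f1 fell, and Tdgf1 went from 13934 and 14030 to 2177 and 1793. Naive factors fell in every line, 11 of 11 genes in each (median log2 difference from -3.88 in R342C to -2.80 in K365T). Over all tested genes the medians were -0.02 to 0, and the test described below called 7934 to 8665 of 17757 genes per line in either direction.

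The stretches upstream of the annotated start sites are shown for the members that have an entry in the RefSeq promoter table (GRCm38.p6, the same assembly as mm10), because these genes were higher together without LIF. Each is the 250 bases before a start site, 5′ to 3′ on the gene's strand. Capitals mark ACAAAG, the core letters of Sox factor sites, on either strand. For Foxp1 the table has 3 start sites and the one shown is the middle one. For Otx2 it has 4, and the one farthest upstream is shown.
Fgf5, chr5:98253934-98254183, plus strand: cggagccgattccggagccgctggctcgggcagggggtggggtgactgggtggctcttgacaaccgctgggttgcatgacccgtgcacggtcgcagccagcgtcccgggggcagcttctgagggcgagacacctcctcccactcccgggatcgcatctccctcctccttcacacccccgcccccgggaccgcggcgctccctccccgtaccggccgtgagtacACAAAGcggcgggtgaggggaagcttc
Foxp1, chr6:99266516-99266765, minus strand: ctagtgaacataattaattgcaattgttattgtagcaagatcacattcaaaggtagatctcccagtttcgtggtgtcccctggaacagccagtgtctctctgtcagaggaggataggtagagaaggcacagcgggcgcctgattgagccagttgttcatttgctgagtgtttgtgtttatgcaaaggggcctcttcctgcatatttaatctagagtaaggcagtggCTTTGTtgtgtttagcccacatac
Sox4, chr13:28953700-28953949, minus strand: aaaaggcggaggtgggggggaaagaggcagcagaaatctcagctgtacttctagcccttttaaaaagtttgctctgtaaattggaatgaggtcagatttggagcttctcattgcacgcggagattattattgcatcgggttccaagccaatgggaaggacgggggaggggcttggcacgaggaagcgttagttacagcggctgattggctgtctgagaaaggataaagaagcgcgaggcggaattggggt
Otx2, chr14:48667645-48667894, minus strand: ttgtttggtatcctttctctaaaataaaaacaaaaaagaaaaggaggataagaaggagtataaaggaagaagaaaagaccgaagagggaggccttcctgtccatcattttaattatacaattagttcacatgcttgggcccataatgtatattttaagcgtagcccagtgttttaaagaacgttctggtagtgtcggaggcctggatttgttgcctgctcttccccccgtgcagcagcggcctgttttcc
The base composition differed, with 70.8% G and C in the Fgf5 stretch against 42% in that of Otx2. Of 32817 stretches of this length in the table, 16.5% hold ACAAAG on either strand. The match in Fgf5 began 27 bases before the start site, the one in the Foxp1 stretch shown 24 bases before it, and 1 more lay 194 bases before the Foxp1 start farthest upstream. TAATCC, the core letters of Otx sites, is in 6.25% of all stretches and in 1 of the 4 of Otx2, 211 bases before a start site that lies farther downstream. The POU octamer ATGCAAAT (1.6% of all stretches) and the Ets letters GGAAGT (19.7%) had 0 matches in the 9 stretches of these 4 genes. Both strands were searched, and no stretch held more than 1 match. A match is a description of letters, and gene counts do not say which start site was used.

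Removal of LIF and the inhibitors was followed by higher RNA of all 6 genes in all 4 lines. On the log2 scale the differences lay between 1.5 (Sox4 in K365T) and 5.42 (Otx2 in Q418R). By limma, with p-values adjusted over all genes by the Benjamini-Hochberg method and a threshold of 0.05, 6 of 6 members rose in each line. In the same comparisons 23.8% of all tested genes rose in WT, 23.3% in R342C, 21.6% in K365T and 23% in Q418R. The median difference of the members was 3.47 in WT, 3.74 in R342C, 3.89 in K365T and 4.37 in Q418R, against -0.01, 0, -0.01 and -0.02 over all tested genes. With replicate 2 of WT without LIF left out, 6 of 6 still rose in WT. Leaving out 1 library at a time moved the fitted rise most for Fgf5 in WT (3.41 to 5.39, the latter without replicate 2 without LIF) and, in K365T, for Otx2 (3.45 to 4.77), Pou3f1 (3.90 to 5.27) and Fgf5 (3.71 to 5.31), each called throughout. In bulk RNA, more cells in which a gene is on and more RNA per cell cannot be told apart.

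**Figure D1:**
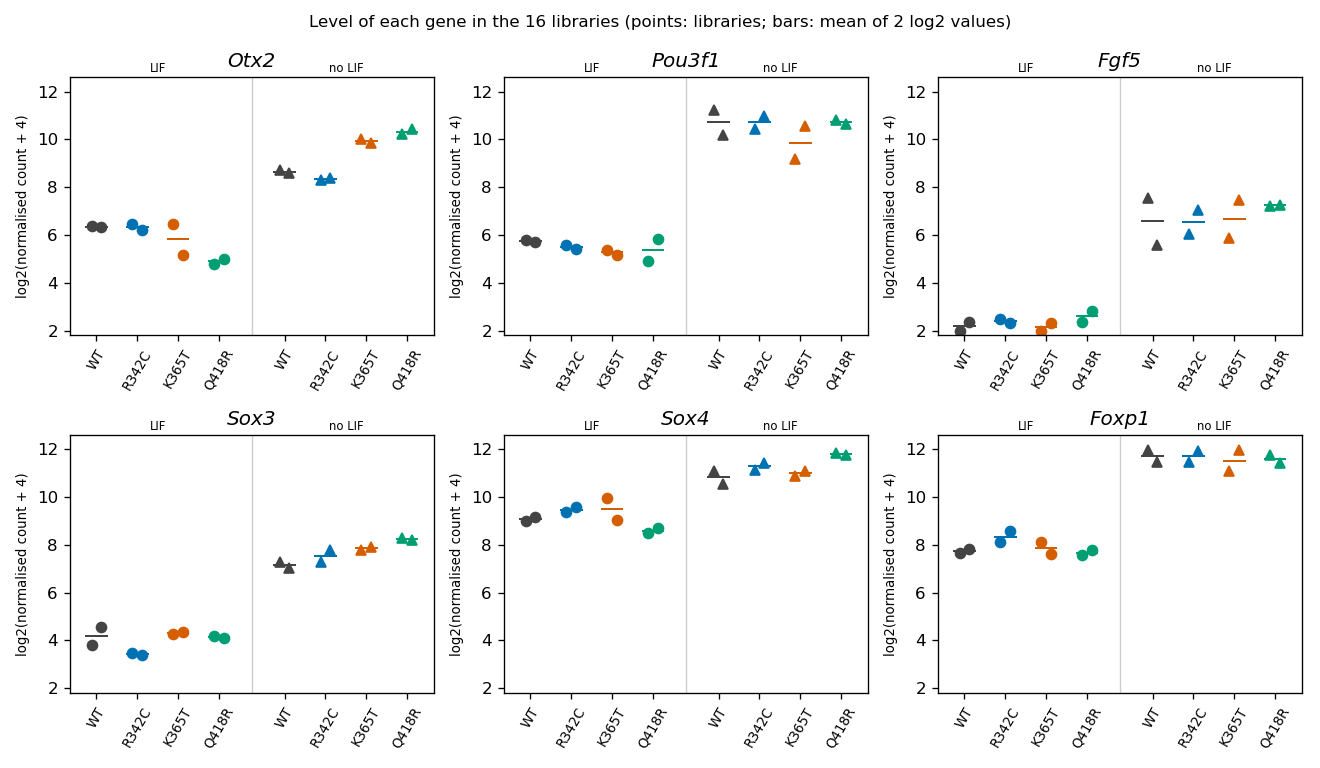
Level of each of the 6 genes, as log2 of the normalised count plus 4, in the 16 libraries; circles are libraries in LIF, triangles libraries without LIF, colours the 4 lines, and short bars the mean of 2 log2 values. Without LIF every gene is higher in each line, and Otx2 is highest in K365T and Q418R.

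Otx2 (chromosome 14, 48657677 to 48673819, minus strand, mm10) stood at 77.9 and 75.6 normalised counts in the 2 WT libraries in LIF and at 412 and 383 without LIF. The R342C line had 85 and 68.9 in LIF and 308 and 328 without. In K365T Otx2 went from 85.1 and 31.8 to 1040 and 905, and in Q418R from 23.8 and 27.9 to 1176 and 1381. The rise was thus 2.31 ± 0.31 (log2, SE) in WT, 2.00 ± 0.31 in R342C, 4.11 ± 0.31 in K365T and 5.42 ± 0.31 in Q418R (highest adjusted p by limma 9.62e-05).

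The higher level of Otx2 without LIF in 2 mutant lines passed the test. K365T exceeded WT by 1.28 ± 0.31 (a fold of 2.43, adjusted p by limma 0.015) and Q418R by 1.67 ± 0.31 (a fold of 3.19, adjusted p 0.00653), and the libraries of neither overlapped those of WT. In LIF the Q418R line was lower than WT by the test, -1.44 ± 0.31 (adjusted p 0.0187), again without overlap. For K365T in LIF the difference was -0.52 (95% interval -1.18 to 0.15), and its 2 libraries lay on both sides of the WT range. The R342C line gave 0.00 (-0.67 to 0.66) in LIF and -0.32 (-0.98 to 0.34) without LIF. Without LIF the levels ran from R342C through WT and K365T to Q418R, and no neighbours in this order overlapped, although R342C and WT did not differ by the test and K365T and Q418R were not compared by one.

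The difference between responses was tested for Otx2 as well. In Q418R the response exceeded that of WT by 3.11 ± 0.44 (adjusted p by limma 0.0394), and 0.141% of all genes passed this interaction test. The K365T response exceeded that of WT by 1.79 ± 0.44, with an adjusted p of 0.0885, and the R342C response differed by -0.31 (95% interval -1.25 to 0.62). The lower Otx2 of Q418R in LIF passed in 4 of 9 alternatives and in 0 of the 4 fits with 1 library left out (adjusted p up to 0.158), with values from -1.55 to -1.34. The call of K365T without LIF ended without replicate 1 of K365T (1.18, adjusted p 0.0531). Without replicate 1 of K365T in LIF, K365T was lower than WT in LIF (-1.17, adjusted p 0.0129) and its interaction passed (2.45, adjusted p 0.00782). With replicate 2 of WT without LIF left out, the difference of Q418R from WT without LIF was 1.62 (adjusted p 0.0611), that of K365T 1.23 (0.0909) and the Q418R interaction 3.06 (0.0913). Of the 8 fits with 1 library left out, the Q418R interaction passed in 1, and its values were 3.00 to 3.23.

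Pou3f1 (chromosome 4, 124656807 to 124660655, plus strand) went from 50.6 and 48.6 normalised counts to 2383 and 1172 in WT, and from 44.1 and 39.1 to 1383 and 2015 in R342C. In K365T the levels were 37.6 and 31.8 in LIF and 571 and 1483 without, and in Q418R 26.2 and 52.8 in LIF and 1782 and 1597 without. The 2 libraries without LIF were far apart in K365T and in WT. The rise was 4.97 ± 0.41 in WT, 5.2 ± 0.41 in R342C, 4.58 ± 0.41 in K365T and 5.35 ± 0.41 in Q418R (highest adjusted p by limma 6.34e-07). No mutant differed from WT by the test: without LIF the differences were 0.00 (95% interval -0.88 to 0.88) in R342C, -0.86 (-1.74 to 0.02) in K365T and 0.01 (-0.87 to 0.89) in Q418R. With replicate 2 of K365T without LIF left out, the difference in K365T was -1.54 and passed (adjusted p 0.0348).

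Fgf5 (chromosome 5, 98254184 to 98277030, plus strand) was close to silent in LIF, with 1 read over both WT libraries, 3 in R342C, 1 in K365T and 1 and 3 in the libraries of Q418R. Without LIF its normalised counts were 185 and 43.8 in WT. The R342C line had 61.1 and 127, K365T had 54.8 and 174, and Q418R had 145 and 148. The ratio of no LIF to LIF was 265 in WT (95% exact binomial interval 47.1 to 10503), 71 in R342C (23.9 to 347) and 211 in K365T (37.4 to 8370), where the intervals cover counting error only. In Q418R, with 4 reads in LIF, the fitted rise was 4.64 ± 0.59 on the log2 scale, which the added 4 compresses. The highest adjusted p of the 4 responses by limma was 4.58e-05. The 2 libraries of WT, R342C and K365T without LIF were far apart, while those of Q418R were nearly equal. Mutant differences from WT without LIF were -0.04 (95% interval -1.30 to 1.23), 0.11 (-1.15 to 1.37) and 0.66 (-0.60 to 1.93) in R342C, K365T and Q418R, so that each interval holds both 0 and a rise of 1, which is a doubling.

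Sox3 (chromosome X, 60891366 to 60893430, minus strand) was low in LIF and rose in each line. In WT it went from 10.1 and 19.4 to 152 and 128 normalised counts, and in R342C from 7.08 and 6.52 to 152 and 218. In K365T the levels were 15.5 and 16.4 in LIF and 215 and 237 without, and in Q418R 14.3 and 12.9 in LIF and 303 and 293 without. Q418R without LIF lay above all other libraries. The rise was 2.98 ± 0.29 in WT, 4.10 ± 0.29 in R342C, 3.53 ± 0.29 in K365T and 4.10 ± 0.29 in Q418R (highest adjusted p by limma 1.03e-06). Without LIF Q418R was higher than WT by the test, by 1.07 ± 0.29 (adjusted p 0.0394), and K365T gave 0.68 (95% interval 0.06 to 1.29; adjusted p 0.128) without overlap. R342C overlapped WT without LIF (0.37, -0.24 to 0.98). The call in Q418R was marginal: it ended with a pseudocount of 1 (adjusted p 0.0617), with no filter on low values (0.067) and with any 1 of the 4 libraries left out (0.0556 to 0.26; 0.26 without replicate 2 of WT). The 21 tested genes that start within 5 Mb of Sox3 had a median difference of 0.31 in that comparison. It was 0.18 for the 579 other tested genes of chromosome X and 0 over all genes. The part of these shifts in the result was not tested.

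Sox4 (chromosome 13, 28948919 to 28953713, minus strand) was the most abundant member in LIF and had the smallest rise of the 6 in each line. Its normalised counts were 505 and 567 in LIF and 2198 and 1476 without in WT, and 660 and 752 against 2208 and 2769 in R342C. In K365T they were 978 and 527 in LIF and 1889 and 2200 without. In Q418R Sox4 went from 357 and 410, the lowest of the LIF libraries, to 3628 and 3494, the highest without LIF. The rise was 1.74 ± 0.24 in WT, 1.81 ± 0.24 in R342C, 1.5 ± 0.24 in K365T and 3.20 ± 0.24 in Q418R (highest adjusted p by limma 0.000147).

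Without LIF Sox4 was higher in Q418R than in WT by the test, by 0.98 ± 0.24 (adjusted p by limma 0.0275). In LIF the difference was -0.48 (95% interval -0.99 to 0.04; adjusted p 0.332), and the Q418R response exceeded that of WT by 1.46 (0.73 to 2.19) with an adjusted p of 0.148. Without replicate 2 of WT the difference without LIF was 0.69 (adjusted p 0.271), and it was not called without either Q418R library or with no filter on low values. R342C and K365T did not differ from WT by the test in either medium, with intervals of -0.06 to 0.97 and -0.34 to 0.69 without LIF. In LIF the K365T difference of 0.42 passed with replicate 2 of K365T left out (0.87, adjusted p 0.0462) and was -0.02 with replicate 1 left out.

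Foxp1 (chromosome 6, 98925338 to 99522721, minus strand) rose from 197 and 225 normalised counts to 4029 and 2777 in WT and from 275 and 374 to 2851 and 3933 in R342C. In K365T it went from 272 and 191 to 2164 and 3996, and in Q418R from 187 and 215 to 3421 and 2747. Without LIF the libraries of all 4 lines overlapped. The rise was 3.96 ± 0.28 in WT, 3.37 ± 0.28 in R342C, 3.67 ± 0.28 in K365T and 3.91 ± 0.28 in Q418R (highest adjusted p by limma 2.45e-07). Without LIF the difference from WT was 0.00 (95% interval -0.60 to 0.60) in R342C, -0.19 (-0.78 to 0.41) in K365T and -0.13 (-0.72 to 0.47) in Q418R. In Q418R the 906 other tested genes of chromosome 6 had a median difference from WT of -0.38 in LIF and -0.35 without, and the 32 within 5 Mb of Foxp1 had -0.37 and -0.10. Foxp1 itself gave -0.07 (-0.67 to 0.53) in LIF, an interval that holds the median of its neighbours.

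**Figure D2:**
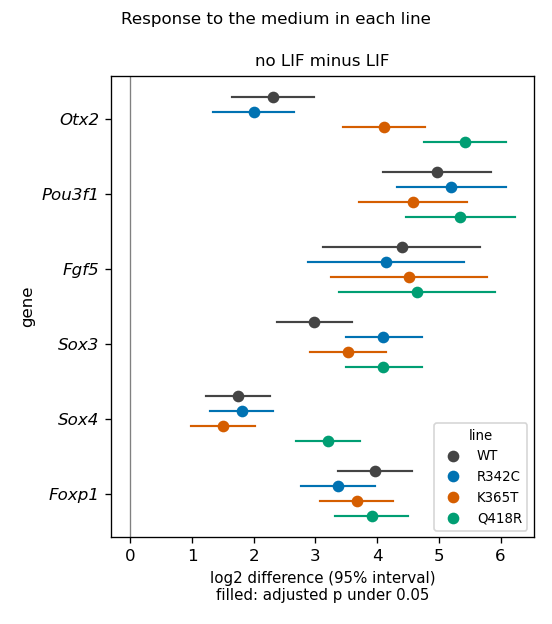
Difference between no LIF and LIF for each gene and line on the log2 scale, with the 95% interval from limma; filled points have an adjusted p under 0.05. All 24 points are filled, from 1.5 for Sox4 in K365T to 5.42 for Otx2 in Q418R, and the Otx2 points spread more than those of Foxp1.

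The calls against WT fell on Otx2, Sox3 and Sox4. Without LIF 3 of 6 members were higher in Q418R than in WT (Otx2, Sox3 and Sox4), where 3.02% of all tested genes were higher, and 1 of 6 (Otx2) in K365T, where 7.38% were. With replicate 2 of WT without LIF left out, these counts were 0 of 6 in both lines by limma, and the calls over all genes went from 1092 to 248 in Q418R and from 2613 to 865 in K365T. In R342C 0 of 6 passed without LIF, where 0.479% of all genes were called; limma called 85 genes there, with 1006 at an unadjusted p under 0.05, and edgeR called 78. In LIF 1 of 6 (Otx2) was lower in Q418R, with 2.38% of all genes lower. In K365T and R342C 0 of 6 passed in LIF by limma or edgeR, and 11.1% and 0.417% of all genes were called by limma. At an unadjusted p under 0.05, Sox3 in R342C (-0.75, p of limma 0.0196, adjusted p 0.685) and Foxp1 in R342C (0.60, p of limma 0.0498, adjusted p 0.881) were the members in LIF. Pou3f1, Fgf5 and Foxp1 were called in no mutant contrast. For the response of R342C against that of WT, 0% of all genes and 0 of 6 members passed by limma or edgeR, with 288 genes at an unadjusted p under 0.05. The 3 mutants were compared with the same 2 WT libraries in each medium, so their differences share the spread of those libraries.

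**Figure D3:**
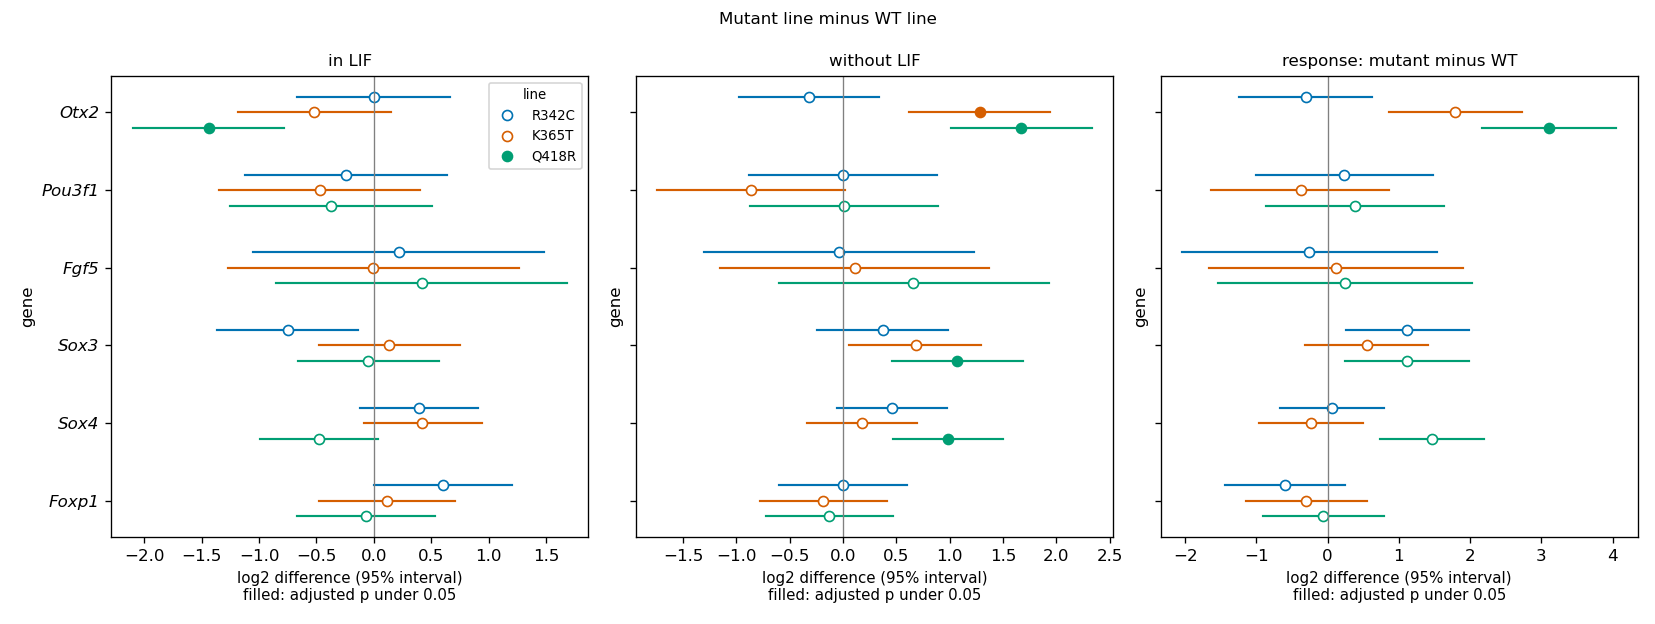
Mutant minus WT for each gene on the log2 scale, in LIF (left), without LIF (middle) and for the response to the medium (right), with the 95% interval from limma; filled points have an adjusted p under 0.05. Filled are Otx2 in Q418R in all 3 panels, and without LIF also Otx2 in K365T and Sox3 and Sox4 in Q418R; the 4 calls without LIF end when replicate 2 of WT is left out.

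Levels between genes were compared on the TPM scale, which is per length. In WT without LIF the order was Pou3f1 (57.1 ± 34.3 TPM, SD, n = 2), Sox4 (46.8 ± 19.1), Foxp1 (30.2 ± 11.8), Otx2 (11.3 ± 2.15), Sox3 (8.19 ± 2.11) and Fgf5 (5.8 ± 5.52). The first 3 overlapped each other across the 2 libraries, although Foxp1 lay below Pou3f1 and Sox4 within each library. Sox3 overlapped Fgf5, while Otx2 lay below Foxp1 in both libraries. In Q418R without LIF the order was Sox4 (101 ± 0.226), Pou3f1 (59.8 ± 3.16), Otx2 (41.4 ± 5.7), Foxp1 (30.5 ± 3.98), Sox3 (19.7 ± 0.0148) and Fgf5 (7.99 ± 0.296), and no neighbours overlapped. Otx2 thus stood below Foxp1 in WT and above it in Q418R. In WT in LIF Sox4 led with 13 ± 0.797 TPM, Otx2, Foxp1 and Pou3f1 lay between 1.45 and 2.18 TPM in single libraries, and Fgf5 was at 0 and 0.05.

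The libraries without LIF shared part of their spread across members. Replicate 1 of WT, replicate 2 of R342C and replicate 2 of K365T held the higher level of Pou3f1, Fgf5, Sox3, Sox4 and Foxp1 within their pairs. Otx2 followed this order in WT and R342C but not in K365T. Of the 11 naive factors, 6 were higher in replicate 1 of WT and 7 in replicate 2 of R342C. In K365T 10 of the 11 were higher in replicate 1, the reverse of Pou3f1, Fgf5, Sox3, Sox4 and Foxp1. Replicate 1 of Q418R also held the higher level of 10 of the 11. In Q418R Fgf5 and Sox3 were nearly equal in the 2 libraries.

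Markers of other cell types were examined beside the members, since Otx2, Sox3, Sox4 and Foxp1 are also expressed in neural or endodermal cells. Without LIF the summed level of 6 endoderm markers (Sox17, Gata4, Gata6, Foxa2, Afp and Ttr) was 375 and 459 normalised counts in WT. It was 495 and 501 in R342C, while K365T had 571 and 456 and Q418R had 527 and 569. Gata6 was higher than in WT in K365T (1.91 ± 0.35) and Q418R (1.94 ± 0.35; adjusted p by limma 0.00564), from 23.9 and 32.5 in WT to 140 and 101 in Q418R, and Sox17 was higher in Q418R (1.66 ± 0.35). Ttr was at 0 in both WT libraries and Afp in both K365T libraries. The summed level of 7 neuroectoderm markers was 2978 and 2404 in WT and 2969 and 2985 in Q418R. Map2 alone of 6 tested was higher in Q418R (1.12 ± 0.22), as in K365T (0.69 ± 0.22). In K365T the neuroectoderm sum was 2263 and 2389. Of 6 fibroblast markers, Lum was at 0 in both libraries without LIF of each line, and the sum was 1415 and 1731 in WT, 1130 and 1217 in K365T and 894 and 1401 in Q418R. Col1a1 was higher than in WT in K365T (2.15 ± 0.35) and Q418R (1.78 ± 0.35). Dcn went the other way in K365T, lower than in WT by the test (-2.57). That call ended with replicate 2 of WT left out (-1.42). The sum of 6 primitive streak and mesoderm markers was 187 and 181 in WT, 195 and 198 in Q418R and 202 and 565 in K365T, where T, the brachyury gene, was at 37.9 and 278. The trophectoderm sum was 1192 and 967 in WT, 1053 and 968 in Q418R and 1818 and 1303 in K365T, where Cdx2 was higher than in WT by the test (2.64), at 20 and 142 normalised counts against 10.5 and 2.24. With replicate 2 of WT left out, Gata6 was still called in both lines, Sox17 in Q418R and Col1a1 in K365T, while Map2 in both lines, Col1a1 in Q418R (adjusted p by limma 0.109) and Cdx2 in K365T (0.205) were not. Their part in the differences of Otx2, Sox3 and Sox4 was not tested.

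Other genes of the formative and primed states rose in most cases. Of 17 such genes 11 rose in WT, 13 in R342C, 14 in K365T and 11 in Q418R, against 23.8%, 23.3%, 21.6% and 23% of all genes, while 2 fell in each line, and the medians in this order were 2.03, 2.47, 1.81 and 2.08. Over all tested genes limma called 7934 to 8665 of 17757 per line in either direction. The pluripotency factor Utf1 (4 ± 0.24), Lin28b, an inhibitor of let-7 maturation (3.86 ± 0.25), the kinase gene Pim2 (3.76 ± 0.47) and Sall2 (3.32 ± 0.34) rose most in WT. In K365T the order was led by the DNA methyltransferase gene Dnmt3b (3.99 ± 0.27), Pim2 (3.78 ± 0.47), the Wnt effector gene Lef1 (3.62 ± 0.53) and Tcf15 (3.36 ± 0.30). The 2 that fell in every line, named for that count, were Foxd3, from -2.47 in R342C to -1.98 in Q418R, and Zeb1, a repressor of epithelial genes, from -1.97 in K365T to -1.09 in WT.

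In R342C 0 of 17 passed against WT in either medium by limma or edgeR, with 0 in LIF and 1 without LIF at an unadjusted p under 0.05. In LIF K365T had 3 higher, Lin28b (2.04 ± 0.25), the epithelial factor Grhl2 (1.78 ± 0.28) and Sall2 (1.23 ± 0.34), where 11.1% of all genes were called in either direction. The call of Sall2 ended without replicate 1 (1.13) or replicate 2 (1.34) of WT in LIF, while those of Lin28b and Grhl2 held. Without LIF Etv4 was higher in K365T (0.86 ± 0.26) and Rbpj lower (-0.76 ± 0.24), 2 of 17 where 14.7% of all genes were called. In Q418R 0 of 17 passed in LIF by limma or edgeR, with 8 at an unadjusted p under 0.05, and without LIF Cdh2, which encodes N-cadherin, was higher (1.82 ± 0.43), 1 of 17 where 3.02% of all genes were higher. With replicate 2 of WT without LIF left out, Etv4 (adjusted p by limma 0.0986), Rbpj (0.218) and Cdh2 (0.23) were not called. Grhl2 was the 1 gene of the list with a different response in K365T, by -1.86 ± 0.40 (adjusted p by limma 0.0499), where 0.659% of all genes passed. This call ended without replicate 2 of WT without LIF (-1.95) and without replicate 1 of WT in LIF (-1.34). It held without replicate 2 of WT in LIF (-2.39).

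**Figure D4:**
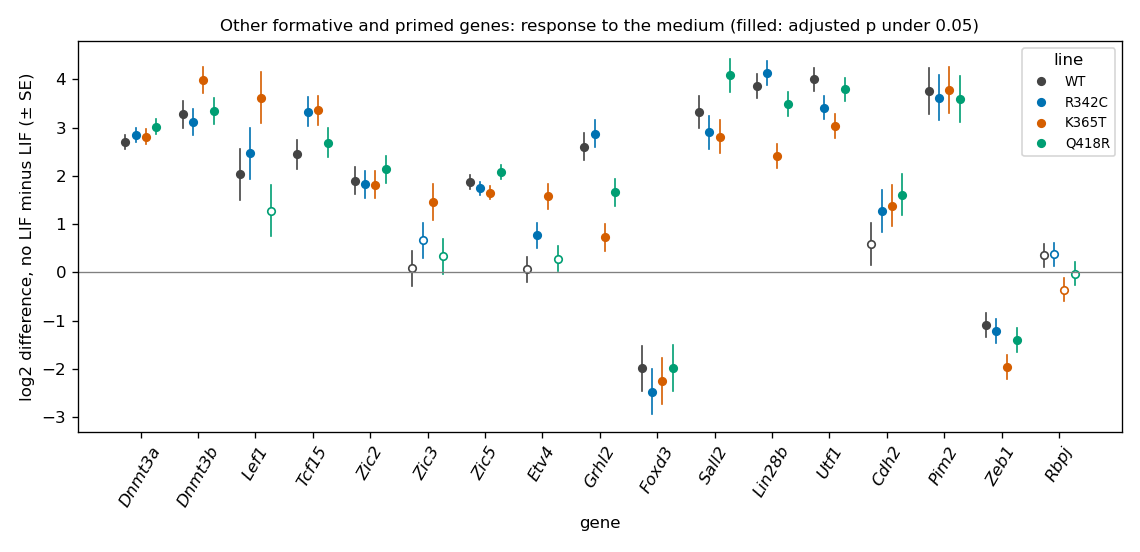
Difference between no LIF and LIF for 17 other formative and primed genes in the 4 lines, on the log2 scale with the SE; filled points have an adjusted p under 0.05. Most genes lie between 1 and 4, Foxd3 and Zeb1 lie below 0 in each line, and Rbpj has no filled point.

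Relatives of the members did not move as a family. Of 15 relatives 11 were tested, and 4 rose and 5 fell in WT. In that comparison 23.8% of all tested genes rose, and limma called 8665 of 17757 in either direction. Sox11, a SoxC factor like Sox4, rose by 5.47 ± 0.21, from 67.8 and 40 to 2554 and 2434 normalised counts, and Foxp2 rose by 1.69 ± 0.35. Foxp2 in WT and Sox2 were named after their values were seen. Otx1, the close relative of Otx2, fell by 2.35 ± 0.24 on the log2 scale, and Pou3f2 by 1.90 ± 0.49. Fgf4, the growth factor that drives exit from the naive state, fell by 1.92 ± 0.30 while Fgf5 rose. Sox2, the SoxB1 relative of Sox3, fell by 0.95 ± 0.15 in WT, by 0.95 in R342C, by 0.60 in K365T and by 1.00 in Q418R. Against WT without LIF, Otx1 was higher in K365T (1.09 ± 0.24) and Foxp2 in Q418R (1.70 ± 0.35; adjusted p by limma 0.0111). Neither passed with replicate 2 of WT left out (0.81, adjusted p 0.104, and 1.67, adjusted p 0.0831).

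Components and outputs of the FGF and ERK pathway, which the MEK inhibitor blocks in the LIF medium, moved in both directions when it was removed, more of them up than down. Of 12 genes 8 rose in WT, 7 in R342C, 7 in K365T and 5 in Q418R, while 1 fell in R342C and 2 in each of the other lines. Calls in either direction over all tested genes were 7934 to 8665 of 17757 per line. Of all genes 23.8%, 23.3%, 21.6% and 23% rose in these comparisons, and without replicate 2 of WT without LIF the list had 6 higher and 1 lower in WT. Dusp4 (4.58 ± 0.36) and Dusp6 (2.85 ± 0.22), phosphatases that act on ERK and related kinases, rose in WT with the feedback inhibitor Spry4 (4.49 ± 0.45) and the receptor gene Fgfr2 (4.23 ± 0.25), while Spry2, named after its values were seen, fell by 2.36 ± 0.24. Against WT without LIF Fgfr2 was lower in K365T (-1.13 ± 0.25; -1.36 and still called without replicate 2 of WT) and 0 of the 12 were called in Q418R or R342C by limma or edgeR, with 0 at an unadjusted p under 0.05. In LIF Dusp6 (-1.69 ± 0.22) and Spry2 (-1.15 ± 0.24) were lower in K365T by limma and edgeR. Egr1 passed by limma (3.69 ± 1.08) and not by edgeR (adjusted p 0.139). Its levels in LIF were 4235 and 147 in WT and 6319 and 16898 in K365T, and without replicate 2 of WT in LIF the difference was 1.29 (adjusted p by limma 0.392). Without replicate 1 of WT in LIF Egr1 was 6.1 higher and Spry2 was not called (-1.03, adjusted p 0.0787). Of the 11 naive factors 1, Nr5a2, was higher than in WT in R342C without LIF by limma (1.33), where 0.479% of all genes were called. By edgeR it was not called (adjusted p 0.0512), and without replicate 2 of WT the difference was 1.17. The Nr5a2 response exceeded that of WT by limma in K365T (2.28) and Q418R (2.25), 1 of 11 in each, where 0.659% and 0.141% of all genes passed. Leaving out that WT library gave 2.12 and 2.09. Of the same 11 factors 4 were higher than in WT in K365T without LIF, where 7.38% of all genes were, and 3 in Q418R, where 3.02% were. Dppa3 (3.69 ± 0.55 and 2.89 ± 0.55) and Nr5a2 (2.81 ± 0.25 and 2.24 ± 0.25) led in both lines. Without replicate 2 of WT these counts were 3 and 1, and Dppa3 in Q418R was not called (2.79, adjusted p by limma 0.0643).

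The genes whose pattern over the 16 libraries was most like that of each member were found by the root mean square difference of centred log2 levels, among 11169 or 11170 genes with a mean of at least 100. For Otx2 these were Thbs3 (0.56), Sez6 (0.57) and Tmem28 (0.65), a poorer match than for the other members. For Pou3f1 they were Cadm3 (0.35), Myrf (0.39) and Vat1l (0.42), and for Fgf5 Sema3e (0.36), Cacna1g (0.44) and Fam171b (0.47). Sox3 was nearest to Igsf9 (0.31), Shank2 (0.32) and Selenop (0.42), Sox4 to Podxl (0.32), Emilin2 (0.33) and Greb1 (0.33), and Foxp1 to Pxdc1 (0.26), Cdkn1c (0.28) and Mmp25 (0.29). Between members the smallest difference was that of Pou3f1 and Fgf5 (0.53) and the largest that of Pou3f1 and Sox4 (1.57). All these values include the step between the media, which the genes named share.

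Of the annotated genes that overlap the members, Gm26735, on the opposite strand to Sox4, was not analysed here. The mean of Otx2os1, on the opposite strand to Otx2, was 5.33 normalised counts over the 16 libraries and its highest value 14.3, in Q418R without LIF. Gm2164, antisense to Pou3f1, and Gm20696, on the strand of Foxp1, each had a mean of 10.3. The library kit marks strand, but whether the counting used it is not given in the sources used here.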

How the data were processed

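The authors deposited 2 tables with 1 column per library. The first holds normalised counts, a signal of reads per gene divided by 1 factor per library, and the second TPM, scaled for length and depth by the authors. Trim Galore, STAR, DESeq2 and the build mm10 are named, without versions, per the submitters' processing notes; the counting tool and annotation are not given in the sources used here.

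Every value was a whole multiple of the value of 1 read (100% within 0.05 read in each library), which gave read counts. The fit used limma 3.58.1 in R 4.3.3 on log2 values after adding 4 to each normalised count (trended eBayes, 8 group means, 8 residual degrees of freedom) for the 17757 genes with a mean of at least 10. There were 13 contrasts, each adjusted by Benjamini-Hochberg over all tested genes at 0.05. Alternatives were a pseudocount of 1, no filter, TPM (plus 0.1), edgeR 4.0.16 on the recovered reads, a replicate block and leaving out each library. Members, lists and the rule for genes named (up to 4 called genes per list by size; 3 nearest per member) were chosen with earlier results of these data known. Positions came from GENCODE M21 (53186 names, 96.2%, matched), promoter sequences from RefSeq.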

Additional observations from a re-analysis of the deposited data

Results flagged for a closer look

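The response of Otx2 to the removal of LIF and the inhibitors differed between Q418R and WT by 3.11 on the log2 scale, by the interaction term of limma (adjusted p 0.0394). The rise was 5.42 in Q418R and 2.31 in WT, and the difference came from both media, -1.44 in LIF and 1.67 without. It passed in 4 of 13 alternatives, with values of 3.00 to 3.25 in all 13 and adjusted p from 0.0302 to 0.16. With edgeR on the recovered reads 20 genes passed this interaction against 25 with limma.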

How the results depend on the processing

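Counts of called genes are given here over all tested genes. For Q418R against WT the TPM scale called 254 genes in LIF (754 with normalised counts) and 610 without LIF (1092), and there 68.1% and 77% of the calls were higher, against 43.9% and 49.2%. TPM also moved the share of higher calls from 57.9% to 78.4% for K365T against WT in LIF, from 50.2% to 75.7% without LIF, and from 49.4% to 60.4% for the response of Q418R, and it moved the median of all genes without LIF by 0.19 in Q418R, 0.17 in R342C and 0.15 in K365T. The K365T interaction gave 22 calls with no filter and 28 on TPM (117), and the Q418R interaction 0, 0 and, with the replicate block, 8 (25). The cause was not tested. With 1 library left out, a lone library is assumed to vary like the other groups. Counts then ran from 30 to 48 for R342C in LIF (74), 734 to 1005 for K365T in LIF (1968), 156 to 246 for Q418R in LIF (754), 32 to 85 for R342C without LIF (85), 865 to 2724 for K365T without LIF (2613) and 248 to 1580 for Q418R without LIF (1092). For the interactions they ran from 0 to 1 in R342C (0), 11 to 259 in K365T (117) and 0 to 51 in Q418R (25). Without replicate 2 of WT without LIF the counts were 52, 865 and 248 for R342C, K365T and Q418R without LIF. Of the 30 called values of the 6 genes, 24, all of them responses to the medium, were called in every alternative, and 0 of 274 alternative values changed sign. Of 500 alternative values of the 48 uncalled results, 59 changed sign and 4 were called. The numbers of the libraries did not pair them by the labels, and their differences correlated between groups from -0.39 to 0.45 (28 pairs of groups). Depth limits Fgf5 in LIF most, at 1 to 4 reads per line.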
